A study of Mus musculus with 12 samples.

Results

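The 31 genes described here encode the enzymes and regulators that build cholesterol and fatty acids, and they were taken by name as 31 of the 55413 genes in the table. They are 3 regulators, 6 enzymes of the mevalonate pathway, 11 enzymes that make squalene and turn it into cholesterol, 1 cholesterol carrier, 2 enzymes that supply acetyl-CoA and 8 enzymes that make, lengthen or desaturate fatty acids. All 31 had enough reads to be tested. The libraries are bulk RNA-seq of regulatory T cells (Treg), the Foxp3-expressing CD4+ cells that restrain immune responses.

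There were 3 libraries of tumor pTreg, 5 of tumor tTreg and 4 of lymph node Treg. Both tumor groups were sorted from Hepa1-6 tumors, which grow from a mouse hepatoma line, on day 18 after inoculation. The hosts were TCRbd-/- mice. They had received tTreg cells of CD45.1 Foxp3YFP-cre mice together with CD8+ cells and Foxp3- CD4+ conventional cells of CD45.2 Foxp3YFP-cre mice, 3 days before the tumor cells. Lymph node Treg came from tumor-free mice and are labelled total Treg, where the tumor groups are labelled pTreg or tTreg. Lymph node Treg carry the same genotype label (Foxp3YFP-cre and TCRbd-/- mice) and had no treatment. Tissue, tumor, treatment and the labelled Treg population thus differ together between tumor and lymph node groups and cannot be told apart. The transferred tTreg and conventional cells came from donors of different CD45 label, so donor may also differ between tumor pTreg and tumor tTreg. The name of the hosts refers to loss of T cell receptor chains, and the labels do not say which other cells they keep. Ages, and whether libraries are separate or pooled animals, are not given in the labels, so p-values measure the spread between libraries, which may be technical.

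Mammalian cells make cholesterol from acetyl-CoA through mevalonate, squalene and lanosterol, and make fatty acids from the same acetyl-CoA through malonyl-CoA. Both routes are switched on by the SREBP transcription factors, which are held in the endoplasmic reticulum by Insig proteins while sterols are plentiful. Activated T cells use these routes to build membranes, and the mevalonate pathway is known to be needed for Treg function. Hepatocytes and macrophages also carry out this synthesis.

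Library totals were 17964262 to 18180959 counts in tumor pTreg, 18107272 to 18510923 in tumor tTreg and 14573864 to 17323894 in lymph node Treg. The tumor libraries go against their label in part, because transcripts of T cells were low in them. The 18 pan-T markers (such as Lck, a T cell receptor kinase, and Lcp2, its adaptor) summed to 1585 ± 14.0 CPM in tumor pTreg, 272.9 ± 4.03 CPM in tumor tTreg and 6760 ± 71.9 CPM in lymph node Treg (CPM are counts scaled by the library total; SD, n = 3, 5 and 4). Lck averaged 159 ± 3.90, 13.9 ± 1.38 and 819 ± 17.7 CPM in that order, and Lcp2, which myeloid cells also express, supplied 137 ± 1.78 CPM of the tumor tTreg sum. The 5 Treg markers, with Il2ra and Ikzf2 the most abundant, summed to 295.5, 84.66 and 2618 CPM in the same order.

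Markers of several other cell types were high in both tumor groups. The 10 hepatoma markers (Alb, serum albumin, and Trf, transferrin, lead) summed to 5339 to 5713 CPM in tumor pTreg, 7882 to 8226 CPM in tumor tTreg and 7.50 to 9.53 CPM in lymph node Treg. Serpina1a was at 0 in all tumor libraries, and 5 of those 10 markers were below 1 CPM on average in either tumor group. The 10 macrophage markers (Lyz2 and Csf1r lead) summed to 5921 to 5971, 5995 to 6351 and 32.65 to 41.04 CPM in the same order. The 8 fibroblast markers (Col3a1 and Dcn lead) summed to 132.9 to 153.0, 672.5 to 796.0 and 1.71 to 3.71 CPM, with Col3a1, Lum and Pdgfra at 0 in all lymph node libraries. The 6 neutrophil markers (Csf3r and S100a9 lead) summed to 40.3 to 41.5, 38.3 to 41.8 and 1.12 to 1.86 CPM, and the 5 erythroid markers (Hbb-bs and Hba-a2 lead) to 26.05 to 46.97, 25.98 to 39.21 and 0 to 1.80 CPM. The 6 dendritic markers (Zbtb46 and Clec9a lead) summed to 14.9 to 16.4, 12.7 to 13.9 and 9.58 to 10.6 CPM, but were mixed. Against lymph node Treg, 3 were called higher, 2 lower and 1 not called in tumor pTreg, and 3, 1 and 2 in tumor tTreg. The other way went the 6 B cell markers (Cd79b and Cd79a lead), at 3.82 to 4.73, 3.83 to 5.02 and 11.9 to 13.6 CPM, and the sum of the 5 endothelial markers (Pecam1 and Vwf lead), at 39.9 to 44.9, 23.1 to 25.6 and 187.9 to 193.4 CPM. In lymph node Treg 4 of these 5 were below 1 CPM on average, all but Pecam1, which leukocytes also express. In each tumor group 3 of the 5 were called higher than in lymph node Treg, 1 (Pecam1) lower, and 1 was not tested. The 6 adipocyte markers (Cfd and Adipoq lead) summed to at most 1.10 CPM in any library. These lists move with every comparison against lymph node Treg below, and their part in it was not tested. In bulk RNA, fewer cells of a type and less RNA per cell cannot be told apart.

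As examples, the 250 bases before the RefSeq transcription start (GRCm38.p6) are printed for some members. Of those printed, 3 rose at least 2-fold in both tumor groups and 1 fell. Capitals mark the sterol response element core TCACNCCAC, the CCAAT box (the letters CCAAT) and the E-box CACGTG, each on either strand. The windows are Hmgcs1 at chr13:119690101-119690350, plus strand, Pmvk at chr3:89454291-89454540, plus strand, Fasn at chr11:120824548-120824797, minus strand, and Elovl5 at chr9:77917115-77917364, plus strand.
Hmgcs1: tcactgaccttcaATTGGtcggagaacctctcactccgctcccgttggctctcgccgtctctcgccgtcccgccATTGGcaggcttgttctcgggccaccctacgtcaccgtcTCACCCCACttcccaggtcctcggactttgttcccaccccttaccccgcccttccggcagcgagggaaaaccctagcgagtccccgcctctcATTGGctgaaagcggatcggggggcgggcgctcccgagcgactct
Pmvk: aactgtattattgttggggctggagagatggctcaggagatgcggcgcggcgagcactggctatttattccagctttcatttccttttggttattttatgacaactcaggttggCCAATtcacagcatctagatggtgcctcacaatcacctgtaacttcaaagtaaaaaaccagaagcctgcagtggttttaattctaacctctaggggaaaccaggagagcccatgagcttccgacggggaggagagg
Fasn: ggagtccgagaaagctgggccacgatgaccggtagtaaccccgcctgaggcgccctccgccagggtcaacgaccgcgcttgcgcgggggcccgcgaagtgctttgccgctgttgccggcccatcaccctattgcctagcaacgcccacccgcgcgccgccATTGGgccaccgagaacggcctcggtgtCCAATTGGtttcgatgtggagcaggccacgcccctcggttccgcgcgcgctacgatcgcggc
Elovl5: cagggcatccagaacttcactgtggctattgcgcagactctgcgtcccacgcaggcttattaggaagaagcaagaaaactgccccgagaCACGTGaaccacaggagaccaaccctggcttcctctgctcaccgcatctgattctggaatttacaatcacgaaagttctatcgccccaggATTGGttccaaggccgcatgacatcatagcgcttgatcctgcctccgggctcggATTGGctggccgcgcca

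At least 1 window was found for 24 of the 31 members. The CCAAT box, the site of the factor NF-Y, which is known to act beside SREBP, occurred in any window of 20 of those 24 members (83.3%), against 40.3% of the 11252 tested genes with a window. Some genes have more than 1 window, and counted by window it occurred in 21 of 29 (72.4%), against 33.8% of all 32851 windows. The GGGCGG box bound by Sp1 occurred in 19 of 24, against 60.4% of tested genes with a window. The E-box occurred in 5 of 24 (Dhcr7, Elovl5, Hsd17b7, Insig1 and Sc5d), against 9.52% of tested genes. The sterol response element core was found only in Hmgcs1, whose copy starts 137 bases before the transcription start, against 1.22% of tested genes. Members that rose and members that fell both carry CCAAT boxes, as the windows of Fasn and Elovl5 show. These matches are descriptions of the letters and say nothing of binding.

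In tumor pTreg, 20 of the 31 members were higher than in lymph node Treg, 9 were lower and 2 (Ebp and Mvd) were not called. In tumor tTreg, 19 were higher, 9 lower and 3 (Ebp, Mvd and Mvk) not called. A call is an adjusted p below 0.05 by the edgeR quasi-likelihood test, adjusted over all 15705 genes tested. Calls were also common among all genes. In tumor pTreg 87.5% of genes were called, 47.6% higher and 39.8% lower, and in tumor tTreg 90.3%, 48.1% higher and 42.3% lower. The members' median log2 fold change was 0.58 in tumor pTreg and 0.64 in tumor tTreg, where the median of all genes tested was 0.12 and 0.10. In tumor pTreg 17 members (54.8%) were called with a change of at least 2-fold, against 47.7% of genes. Higher were Acaca, Fasn, Scd1, Scd2, Fads1, Fads2, Hmgcs1, Pmvk, Idi1, Fdps, Sqle, Cyp51, Msmo1 and Insig1, and lower were Acss2, Elovl5 and Elovl6. In tumor tTreg 14 members (45.2%) passed 2-fold, against 53.5% of genes, and these were the same genes without Acaca, Insig1 and Elovl6. Both comparisons use the same 4 lymph node libraries and are given side by side.

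The CPM ranges of tumor pTreg and lymph node Treg did not overlap for 29 members (19 higher, 10 lower), against 85.9% of genes tested. Those of tumor tTreg and lymph node Treg did not overlap for 27 (17 higher, 10 lower), against 85.2%.

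**Figure D1:**
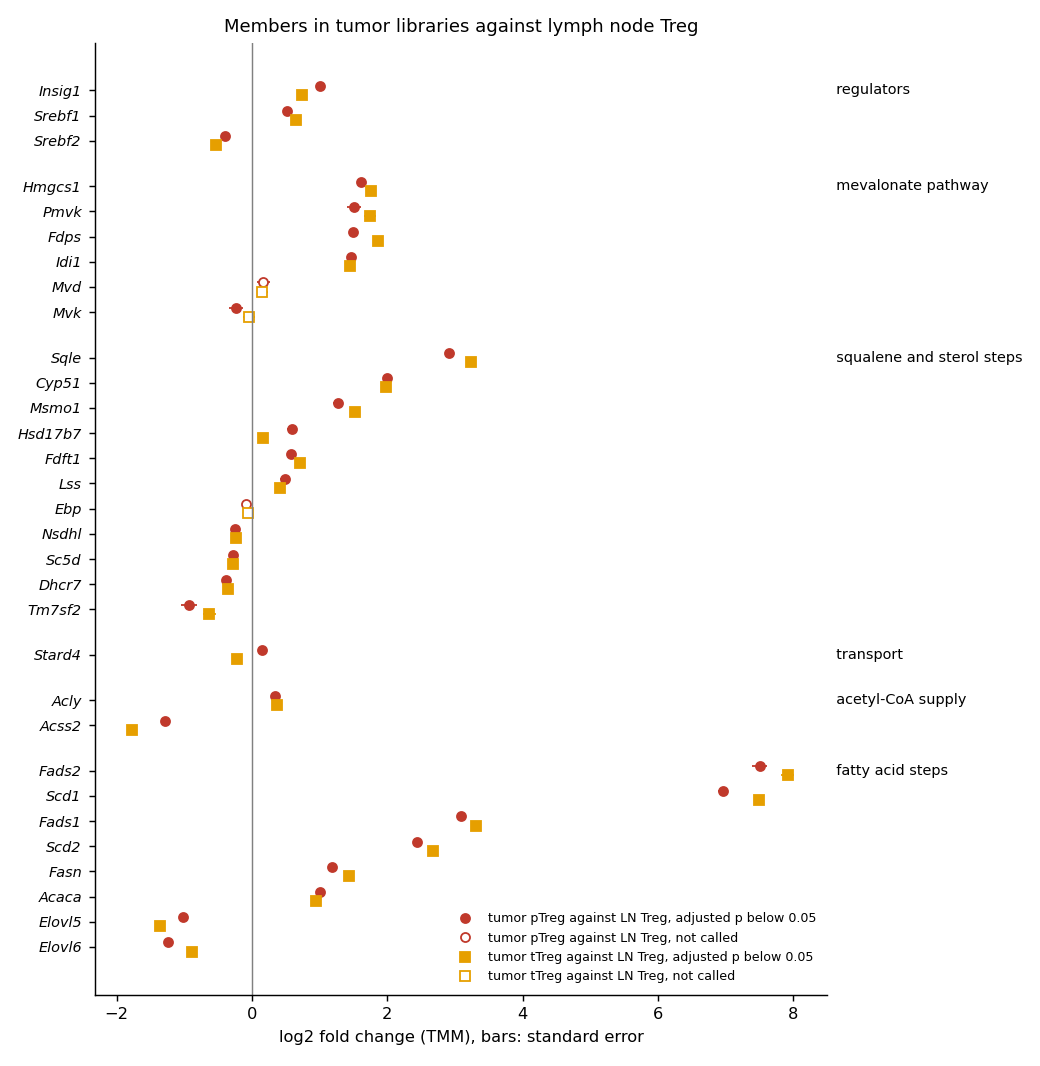
Log2 fold change (x axis, TMM scaling) of each of the 31 members in tumor pTreg (circles) and tumor tTreg (squares) against lymph node Treg, with standard errors as bars and members grouped by role. Filled symbols have an adjusted p below 0.05. The desaturases Fads2, Scd1, Fads1 and Scd2 lie furthest to the right in the fatty acid group, and Acss2, Elovl5 and Elovl6 lie left of 0.

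Among the regulators, Srebf1 and Insig1 were higher and Srebf2 was lower in both tumor groups. Srebf1, which encodes the SREBP that mainly drives fatty acid genes, stood at 94.2, 97.5 and 94.5 CPM in the tumor pTreg libraries, 112, 108.5, 101, 104 and 101 CPM in the tumor tTreg libraries and 70.95, 74.45, 74.9 and 67.6 CPM in the lymph node libraries. All tumor libraries lay above all lymph node libraries, and the log2 fold changes were 0.51 ± 0.04 for tumor pTreg (adjusted p = 1.48e-12) and 0.64 ± 0.035 for tumor tTreg (adjusted p = 2.81e-16). Srebf2, which encodes the SREBP that mainly drives cholesterol genes, stood at 129, 134 and 129 CPM in the tumor pTreg libraries, 125, 124, 118, 119 and 112 CPM in the tumor tTreg libraries and 177, 189.9, 188 and 185 CPM in the lymph node libraries. It was lowest in tumor tTreg, with no overlap between any of the 3 groups, and the log2 fold changes were -0.39 ± 0.035 for tumor pTreg (adjusted p = 1.87e-11) and -0.53 ± 0.03 for tumor tTreg (adjusted p = 7.8e-16). Insig1, which encodes a sterol-sensing anchor and is itself an SREBP target, stood at 95.9, 96.9 and 100.4 CPM in the tumor pTreg libraries, 82.6, 79.99, 85.4, 79.96 and 83.5 CPM in the tumor tTreg libraries and 51.5, 51.4, 51.8 and 55.0 CPM in the lymph node libraries. It was highest in tumor pTreg, again with no overlap, and the log2 fold changes were 1.00 ± 0.038 for tumor pTreg (adjusted p = 4.76e-20) and 0.75 ± 0.035 for tumor tTreg (adjusted p = 5.02e-18).

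The mevalonate pathway was uneven. Hmgcs1, Pmvk, Idi1 and Fdps were at least 2-fold higher in both tumor groups, while Mvk and Mvd, the enzymes on either side of Pmvk, had log2 fold changes between -0.24 and 0.17. Hmgcs1, which makes HMG-CoA, stood at 80.7, 76.4 and 82.75 CPM in the tumor pTreg libraries, 85.6, 86.7, 91.5, 89.2 and 90.6 CPM in the tumor tTreg libraries and 27.1, 28.8, 27.8 and 28.8 CPM in the lymph node libraries. The log2 fold changes were 1.61 ± 0.045 for tumor pTreg (adjusted p = 1.78e-23) and 1.76 ± 0.04 for tumor tTreg (adjusted p = 9.37e-26). Pmvk, phosphomevalonate kinase, was 14.2 to 15.95 CPM in tumor pTreg, 16.1 to 19.0 CPM in tumor tTreg and 4.36 to 6.71 CPM in lymph node Treg, with log2 fold changes of 1.51 and 1.74 for the 2 tumor groups. Idi1, which isomerises the isoprenoid building block, had log2 fold changes of 1.46 and 1.45, and Fdps, which makes farnesyl diphosphate, 1.49 and 1.86. Of the 50-base windows of its transcript, Fdps shares 86.4% and Idi1 21.3% with other genes, most of them predicted genes, so their counts depend on how the authors' counting split such reads.

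Mvk, mevalonate kinase, stood at 5.28, 5.455 and 5.81 CPM in the tumor pTreg libraries, 5.80, 5.96, 6.645, 6.63 and 6.57 CPM in the tumor tTreg libraries and 7.77, 6.52, 6.64 and 6.97 CPM in the lymph node libraries. Its tumor pTreg libraries lay below all lymph node libraries, with a log2 fold change of -0.24 ± 0.1 (adjusted p = 0.0374), and the tumor tTreg libraries overlapped them (-0.047 ± 0.089, adjusted p = 0.616). The tumor pTreg call was lost without lymph node replicate 1 or 4 or tumor pTreg replicate 1 or 2, with adjusted p of 0.0502 to 0.117, and with DESeq2, no filter on low counts or a replicate block. Mvd, the decarboxylase after Pmvk, was 10.01 to 12.9, 10.4 to 12.4 and 10.4 to 12.1 CPM in tumor pTreg, tumor tTreg and lymph node Treg, and its groups overlapped. It was called higher in tumor pTreg without lymph node replicate 1 or tumor pTreg replicate 3 (adjusted p of 0.0141 to 0.0402), and in tumor tTreg without lymph node replicate 1 or tumor tTreg replicate 1 or 5 (0.037 to 0.0485), and there also with RLE factors or a replicate block.

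**Figure D2:**
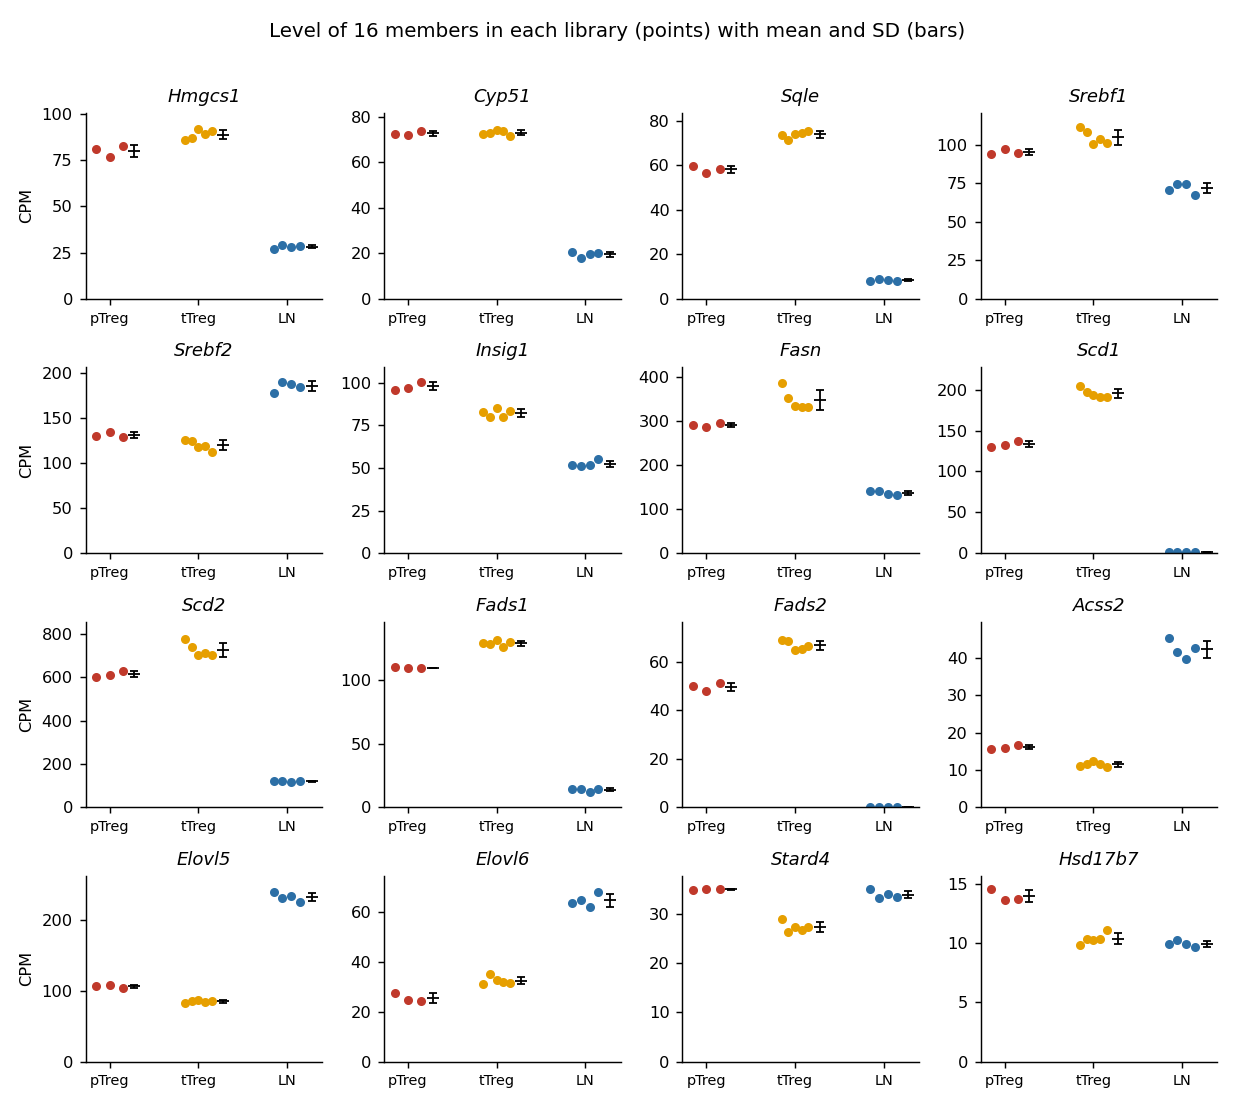
CPM (y axis, from 0) of 16 members in each library, with tumor pTreg, tumor tTreg and lymph node Treg from left to right in each panel; points are libraries and black bars the mean and SD. Scd1 and Fads2 were near 0 in lymph node Treg, Acss2, Elovl5 and Elovl6 were highest there, and Hsd17b7 was highest in tumor pTreg.

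Of the 11 squalene and sterol enzymes, 6 were higher and 4 lower in each tumor group. Those that rose include the enzymes that make and use squalene and lanosterol. Sqle, squalene epoxidase, a rate-limiting enzyme of cholesterol synthesis, stood at 59.6, 56.45 and 58.4 CPM in the tumor pTreg libraries, 73.7, 71.5, 74.2, 74.3 and 75.4 CPM in the tumor tTreg libraries and 8.18, 8.92, 8.43 and 7.84 CPM in the lymph node libraries. This was the largest change of the 11, with log2 fold changes of 2.91 ± 0.054 for tumor pTreg (adjusted p = 1.01e-27) and 3.24 ± 0.048 for tumor tTreg (adjusted p = 2.37e-30). Cyp51, which removes a methyl group from lanosterol, stood at 72.4, 72.0 and 74.0 CPM in the tumor pTreg libraries, 72.5, 72.7, 74.3, 73.8 and 71.4 CPM in the tumor tTreg libraries and 20.7, 18.05, 19.8 and 19.99 CPM in the lymph node libraries. Both tumor groups lay at the same level and apart from lymph node Treg, with log2 fold changes of 1.99 ± 0.045 for tumor pTreg (adjusted p = 1.25e-25) and 1.99 ± 0.041 for tumor tTreg (adjusted p = 8.46e-27). Msmo1, which oxidises further methyl groups, had log2 fold changes of 1.27 in tumor pTreg and 1.52 in tumor tTreg, Fdft1 (squalene synthase) 0.58 and 0.72, and Lss (lanosterol synthase) 0.49 and 0.42. The direction of Lss turned with limma on log2(FPKM + 1), at -0.075 and -0.035.

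Hsd17b7, a sterol ketone reductase, stood at 14.5, 13.6 and 13.7 CPM in the tumor pTreg libraries, 9.80, 10.3, 10.3, 10.35 and 11.1 CPM in the tumor tTreg libraries and 9.94, 10.3, 9.87 and 9.645 CPM in the lymph node libraries. It was higher in tumor pTreg than in lymph node Treg, with a log2 fold change of 0.59 ± 0.074 (adjusted p = 2.34e-08). Its tumor tTreg libraries overlapped those of lymph node Treg, and the call there (0.16 ± 0.069, adjusted p = 0.0325) was lost without any 1 of lymph node replicates 1, 3 and 4 and tumor tTreg replicates 2 and 5, with adjusted p of 0.0588 to 0.0891. It was also lost with DESeq2, library totals only, no filter on low counts, a mean of at least 5 CPM, only the 2 groups compared or a replicate block. It turned to -0.057 with limma on log2(FPKM + 1).

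The 4 sterol enzymes that fell in both tumor groups were Tm7sf2, Nsdhl, Sc5d and Dhcr7. Tm7sf2, a sterol reductase, was 3.905 to 5.255 CPM in tumor pTreg, 4.69 to 6.16 CPM in tumor tTreg and 8.65 to 9.70 CPM in lymph node Treg, with log2 fold changes of -0.93 and -0.63. Dhcr7, which carries out a last step of cholesterol synthesis, fell by less, at -0.39 and -0.35, as did the sterol desaturase Sc5d (-0.27 and -0.28) and the dehydrogenase Nsdhl (-0.25 and -0.24). The tumor tTreg calls of Sc5d and Dhcr7 were lost with limma on log2(FPKM + 1). Ebp, a sterol isomerase, was 35.1 to 36.9, 35.1 to 37.95 and 38.8 to 42.8 CPM in tumor pTreg, tumor tTreg and lymph node Treg, with adjusted p of 0.08 and 0.178 against lymph node Treg. It was called lower in tumor pTreg without lymph node replicate 2 (log2 fold change -0.12, adjusted p = 0.0248). Both tumor groups had it called lower with library totals as the only scaling, with a mean of at least 5 CPM required and with limma on log2(FPKM + 1), and tumor pTreg also with RLE factors and with only the 2 groups compared.

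Stard4, which carries cholesterol between membranes, was called in opposite directions. It stood at 34.7, 34.9 and 35.1 CPM in the tumor pTreg libraries, 28.8, 26.3, 27.2, 26.6 and 27.3 CPM in the tumor tTreg libraries and 34.9, 33.1, 34.1 and 33.35 CPM in the lymph node libraries. Tumor tTreg libraries were the lowest and did not overlap the others, while tumor pTreg and lymph node libraries overlapped. The log2 fold changes were 0.15 ± 0.046 for tumor pTreg (adjusted p = 0.00468) and -0.22 ± 0.042 for tumor tTreg (adjusted p = 2.89e-05), and 0.36 ± 0.045 between tumor pTreg and tumor tTreg (adjusted p = 8.82e-08). The tumor pTreg call against lymph node Treg did not hold with DESeq2 or with library totals only, and its sign turned with limma on log2(FPKM + 1), at -0.0039.

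The 2 sources of acetyl-CoA differed. Acly, which makes it from citrate, was 271 to 282 CPM in tumor pTreg, 268.5 to 298 CPM in tumor tTreg and 226 to 244 CPM in lymph node Treg, with log2 fold changes of 0.35 and 0.37. Acss2, which makes it from acetate, stood at 15.7, 15.98 and 16.8 CPM in the tumor pTreg libraries, 11.1, 11.7, 12.4, 11.7 and 10.8 CPM in the tumor tTreg libraries and 45.2, 41.65, 39.7 and 42.5 CPM in the lymph node libraries. No group overlapped another, and the log2 fold changes were -1.28 ± 0.06 for tumor pTreg (adjusted p = 8.92e-18) and -1.78 ± 0.055 for tumor tTreg (adjusted p = 1.68e-22).

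In the fatty acid group, 6 of 8 members were higher and 2 lower in each tumor group. Scd1, Fads2 and Fads1, desaturases that put double bonds into fatty acids, had the largest log2 fold changes of all 31 members in both comparisons. Scd1, stearoyl-CoA desaturase, stood at 130.5, 132.5 and 137.5 CPM in the tumor pTreg libraries, 204.5, 197, 194, 192 and 191 CPM in the tumor tTreg libraries and 1.0, 1.304, 1.33 and 0.988 CPM in the lymph node libraries. The log2 fold changes were 6.95 ± 0.07 for tumor pTreg (adjusted p = 4.77e-34) and 7.50 ± 0.063 for tumor tTreg (adjusted p = 3.26e-36). Fads2, the first desaturase of polyunsaturated fatty acid synthesis, stood at 49.8, 47.9 and 51.3 CPM in the tumor pTreg libraries, 68.7, 68.25, 64.7, 65.3 and 66.3 CPM in the tumor tTreg libraries and 0.1765, 0.343, 0.289 and 0.349 CPM in the lymph node libraries. The lymph node values rest on 3, 5, 5 and 6 counts, so the log2 fold changes of 7.50 ± 0.11 for tumor pTreg and 7.92 ± 0.095 for tumor tTreg have a weak base. Both genes were close to absent in lymph node Treg and abundant in all tumor libraries.

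Fads1, the second desaturase of that pathway, stood at 109.6, 109 and 109 CPM in the tumor pTreg libraries, 129, 128, 131, 125.5 and 129.5 CPM in the tumor tTreg libraries and 14.1, 14.7, 12.2 and 14.35 CPM in the lymph node libraries. The log2 fold changes were 3.09 ± 0.046 for tumor pTreg (adjusted p = 4.33e-30) and 3.31 ± 0.042 for tumor tTreg (adjusted p = 4.42e-32). Scd2, the other stearoyl-CoA desaturase, stood at 603, 609 and 629 CPM in the tumor pTreg libraries, 776, 738, 703, 713 and 702 CPM in the tumor tTreg libraries and 122, 124, 119 and 122.5 CPM in the lymph node libraries. It was present in lymph node Treg as well, and its log2 fold changes were 2.44 ± 0.034 for tumor pTreg (adjusted p = 1.32e-30) and 2.67 ± 0.032 for tumor tTreg (adjusted p = 1.41e-32). Scd1 and Scd2 are neighbours on chromosome 19, 87.6 kb apart, and share 4.66% and 4.01% of their transcripts' 50-base windows with other genes of the family or nearby. Fads1 and Fads2 lie 81.1 kb apart on chromosome 19.

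Fasn, fatty acid synthase, which makes palmitate, stood at 291, 286 and 295 CPM in the tumor pTreg libraries, 386, 353.5, 334, 332 and 333 CPM in the tumor tTreg libraries and 140.5, 142, 135 and 132 CPM in the lymph node libraries. Tumor tTreg libraries were highest and spread most, and the log2 fold changes were 1.19 ± 0.04 for tumor pTreg (adjusted p = 2.9e-21) and 1.44 ± 0.036 for tumor tTreg (adjusted p = 1.27e-24). Acaca, which makes the malonyl-CoA that Fasn uses, was 43.0 to 46.4 CPM in tumor pTreg, 40.7 to 44.8 CPM in tumor tTreg and 23.1 to 24.75 CPM in lymph node Treg, with log2 fold changes of 1.01 and 0.95. Of its windows 52.6% are shared with the predicted gene Gm5182, so its counts are uncertain.

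The 2 elongases went the other way. Elovl5, which lengthens polyunsaturated fatty acids, stood at 107, 108 and 104 CPM in the tumor pTreg libraries, 82.6, 85.8, 86.8, 83.85 and 85.1 CPM in the tumor tTreg libraries and 239, 229.7, 233 and 225 CPM in the lymph node libraries. The log2 fold changes were -1.02 ± 0.032 for tumor pTreg (adjusted p = 3.46e-22) and -1.35 ± 0.028 for tumor tTreg (adjusted p = 7.28e-27). Elovl6, which lengthens palmitate, stood at 27.7, 24.55 and 24.2 CPM in the tumor pTreg libraries, 31.03, 35.1, 32.8, 32.0 and 31.6 CPM in the tumor tTreg libraries and 63.7, 64.7, 61.9 and 68.0 CPM in the lymph node libraries. The log2 fold changes were -1.24 ± 0.053 for tumor pTreg (adjusted p = 9.97e-19) and -0.89 ± 0.044 for tumor tTreg (adjusted p = 1.88e-17). For both, every tumor library lay below every lymph node library, with tumor tTreg lowest for Elovl5 and tumor pTreg lowest for Elovl6.

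Compared per transcript length, as FPKM (reads divided by the length of the transcript and by library depth), the members also changed order. The highest in both tumor groups was Scd2, at 119 ± 2.74 FPKM in tumor pTreg and 141 ± 5.86 FPKM in tumor tTreg, against 23.6 ± 0.452 FPKM in lymph node Treg. In lymph node Treg the highest was Elovl5, at 43.15 ± 0.957 FPKM in tumor pTreg, 34.7 ± 0.383 FPKM in tumor tTreg and 94.2 ± 2.75 FPKM in lymph node Treg. Acly was the second in all groups, at 87.2 ± 3.15, 89.8 ± 2.62 and 75.3 ± 2.97 FPKM in tumor pTreg, tumor tTreg and lymph node Treg. The lowest was Hsd17b7 in both tumor groups and Fads2 in lymph node Treg. Of the 30 neighbouring pairs in this order, 18 overlapped over libraries in each tumor group and 19 in lymph node Treg.

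The 31 members together summed to 788 ± 2.26 FPKM in tumor pTreg, 869 ± 17.2 FPKM in tumor tTreg and 538 ± 5.25 FPKM in lymph node Treg. The fatty acid enzymes made up 38.4 ± 0.493%, 40.8 ± 0.808% and 30.2 ± 0.795% of that sum in the same order. The 4 desaturases, a grouping chosen after their values were seen, made up 25.5 ± 0.541%, 28.7 ± 0.438% and 5.31 ± 0.147%. Mevalonate enzymes also took a larger share in the tumor groups (14.7% and 15.8%, against 9.63%). Shares were smaller in the tumor groups for acetyl-CoA enzymes (11.98% and 10.9%, against 17.4%), squalene and sterol enzymes (18.6% and 18.7%, against 21.96%), regulators (15.2% and 12.9%, against 19.2%) and the carrier Stard4 (1.13% and 0.817%, against 1.65%). The sum itself was larger in the tumor groups, and a rise of some roles lowers the shares of others. A smaller share is therefore not by itself a lower level.

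**Figure D3:**
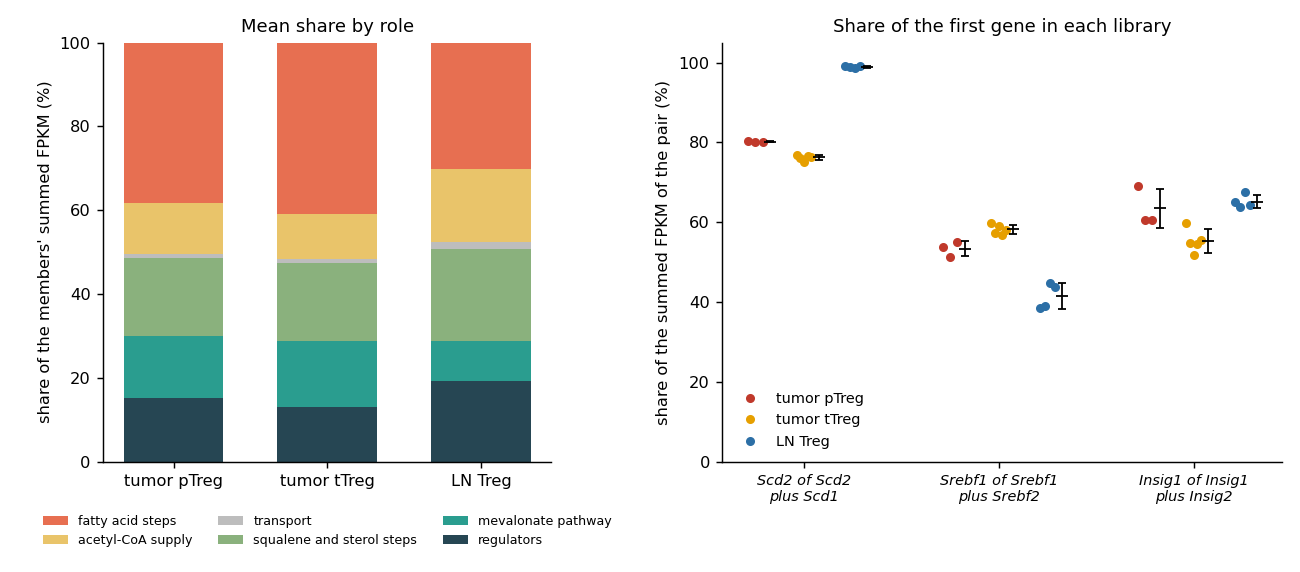
Left, mean share (y axis, percent) of the members' summed FPKM taken by each role in tumor pTreg, tumor tTreg and lymph node Treg; right, share of the summed FPKM of a gene pair taken by its first gene in each library (points) with mean and SD (bars). Fatty acid enzymes take 38.4%, 40.8% and 30.2%, and Scd2 takes almost all of its pair in lymph node Treg only.

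Shares within a gene pair do not depend on how libraries are scaled, and show unequal change only. Scd2 supplied 80.2 ± 0.0728% of Scd1 plus Scd2 FPKM in tumor pTreg, 76.3 ± 0.651% in tumor tTreg and 98.9 ± 0.174% in lymph node Treg. Srebf1 supplied 53.4 ± 1.89%, 58.2 ± 1.17% and 41.5 ± 3.17% of Srebf1 plus Srebf2. By FPKM the tumor groups thus held more Srebf1 than Srebf2 and lymph node Treg held less. By CPM, which do not correct for length, Srebf2 stood above Srebf1 in every group (130.8 against 95.4, 119.6 against 105.1 and 184.8 against 72.0). The FPKM order rests on the transcript length in use (CPM divided by FPKM), such as 2.43 kb for Srebf1 and 3.82 kb for Srebf2 in tumor pTreg. Insig1 supplied 63.5 ± 4.91%, 55.2 ± 2.95% and 65.1 ± 1.67% of Insig1 plus Insig2 (the other Insig anchor). Tumor tTreg differed from lymph node Treg in all 3 shares, by -22.7, 16.7 and -9.89 percentage points for Scd2, Srebf1 and Insig1 (two-sided exact permutation test, p = 0.0159, the smallest this design allows, adjusted p = 0.0476 over 9 tests for each). Each of these lost the threshold when any 1 library was left out (adjusted p of 0.0536 to 0.0643), since fewer libraries raise the smallest possible p.

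Tumor pTreg differed from tumor tTreg by 3.94, -4.83 and 8.22 points for Scd2, Srebf1 and Insig1, each with the smallest p this exact permutation test allows (0.0357, adjusted p = 0.0536), which misses the threshold. Against lymph node Treg, the tumor pTreg differences were -18.7, 11.9 and -1.68 points, with exact permutation adjusted p of 0.0643, 0.0643 and 0.629. An exact permutation test of 3 against 4 libraries cannot go below p = 0.0571. The groups did not overlap in the shares of Scd2 and Srebf1, and in that of Insig1 tumor pTreg overlapped lymph node Treg.

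Between the tumor groups, 6 members stood higher in tumor pTreg than in tumor tTreg, 14 stood lower and 11 were not called. Over all genes tested 52.1% were called, 26.8% higher and 25.3% lower. The median log2 fold change was -0.041 over the members and -0.0080 over all genes, and no member reached 2-fold, against 7.98% of genes. CPM ranges did not overlap for 19 members (6 higher, 13 lower), against 48.5% of genes.

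The 6 that were higher in tumor pTreg were Acss2 (0.50 ± 0.069, adjusted p = 5.75e-07), Hsd17b7 (0.43 ± 0.069), Stard4 (0.36 ± 0.045), Elovl5 (0.33 ± 0.032), Insig1 (0.26 ± 0.034) and Srebf2 (0.14 ± 0.034), as log2 fold changes with standard errors. Acss2, Elovl5 and Srebf2 are members that were lower in both tumor groups than in lymph node Treg, and tumor pTreg lay between the other groups for each. The 14 that were lower in tumor pTreg were led by Scd1 (-0.54 ± 0.03, adjusted p = 5.71e-15), Fads2 (-0.42 ± 0.039), Fdps (-0.37 ± 0.047), Elovl6 (-0.34 ± 0.055) and Sqle (-0.34 ± 0.036). Fasn, Scd2, Fads1, Msmo1, Pmvk, Tm7sf2, Hmgcs1, Fdft1 and Srebf1 followed, at -0.30 to -0.13. The fatty acid group held 6 of the 14, and Acaca was its only member not called.

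Calls of 3 members in this comparison were lost when 1 library was left out. Tm7sf2 lost its call without tumor pTreg replicate 1 or 2 or tumor tTreg replicate 1, 2 or 3 (adjusted p of 0.0561 to 0.179). Fdft1 lost it without tumor pTreg replicate 1 or 2 or tumor tTreg replicate 3 or 4 (0.0894 to 0.136), and Pmvk without tumor pTreg replicate 2 or 3 (0.0679 to 0.0793). The calls of Srebf2 and Tm7sf2 were lost with DESeq2, that of Fdft1 with only the 2 groups compared, and those of Srebf1, Pmvk and Fdft1 with limma on log2(FPKM + 1). Cyp51 and Idi1, both at least 2-fold above lymph node Treg in either tumor group, had log2 fold changes near 0 between the tumor groups, at 0.0044 ± 0.035 and 0.0043 ± 0.043.

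**Figure D4:**
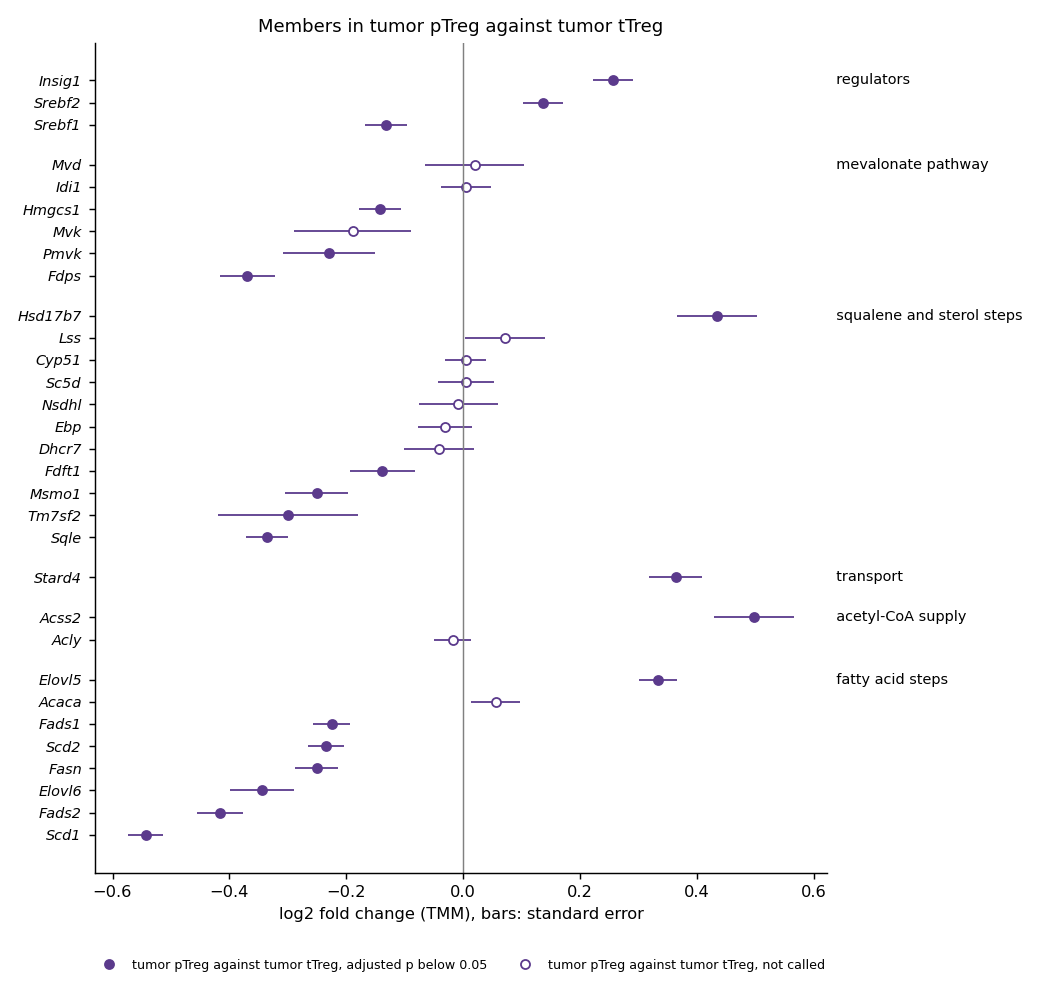
Log2 fold change (x axis, TMM scaling) of the 31 members in tumor pTreg against tumor tTreg, with standard errors as bars, grouped by role. Filled circles have an adjusted p below 0.05, and all members lie between the extremes of Scd1 (-0.54) and Acss2 (0.50).

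Markers of other cells moved with this comparison too. All 5 tested hepatoma markers stood lower in tumor pTreg than in the tTreg libraries, with a log2 ratio of the list sums of -0.55, and 7 of 8 fibroblast markers were lower and 1 higher, at -2.36. Alb had a log2 fold change of -0.51 and Trf -0.54, next to -0.54 for Scd1 and -0.42 for Fads2. Of 10 macrophage markers 4 were lower and 1 higher, with a log2 ratio of sums of -0.058. Of 5 endothelial markers 3 were higher and 0 lower (0.82), of 6 dendritic markers 3 were higher and 1 lower (0.20), and of 6 B cell markers 0 were higher and 1 lower (-0.051) as log2 ratio of sums. With edgeR, 0 of 4 tested neutrophil and 0 of 5 erythroid markers were called, and 0 had an unadjusted p below 0.05. All 18 pan-T and all 5 Treg markers were higher in tumor pTreg. The part of these shifts in the members' differences was not tested.

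The direction of the calls depends on the scaling. When libraries were scaled to their summed pan-T marker counts instead, all 31 members were higher in both tumor groups than in lymph node Treg and all 31 fell below tumor tTreg in tumor pTreg. This scaling moved the median log2 fold change of all genes tested to 2.10, 4.63 and -2.55 in the 3 comparisons. It called 90.2%, 95.3% and 95.4% of genes in the same directions, against 4.95%, 2.13% and 1.41% in the opposite ones. Every direction given here under TMM scaling is therefore relative to all RNA in the library, not to T cell transcripts.

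A list of 31 other genes of sterol and fatty acid metabolism, of which 29 were tested, is given for context. In tumor pTreg 20 were higher and 6 lower than in lymph node Treg (median log2 fold change 0.84), and in tumor tTreg 20 were higher and 7 lower (median 0.89). Over all genes tested, 47.6% were called higher and 39.8% lower in tumor pTreg, and 48.1% and 42.3% in tumor tTreg. Abca1, which exports cholesterol, averaged 435 ± 14.9 CPM in tumor pTreg, 458 ± 7.86 CPM in tumor tTreg and 40.9 ± 2.7 CPM in lymph node Treg, with log2 fold changes of 3.52 ± 0.039 for tumor pTreg (adjusted p = 4.15e-33) and 3.58 ± 0.037 for tumor tTreg (adjusted p = 2.99e-34).

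Between the tumor groups, 10 of these other genes were called higher and 12 lower in tumor pTreg (median -0.067). Over all genes tested, 26.8% were called higher and 25.3% lower. Abcg1, a cholesterol exporter like Abca1, averaged 88.6 ± 2.26 CPM in tumor pTreg, 61.85 ± 1.39 CPM in tumor tTreg and 150 ± 2.33 CPM in lymph node Treg. It was higher in tumor pTreg than in tumor tTreg (0.53 ± 0.033, adjusted p = 7.29e-14) and lower in both than in lymph node Treg. Insig2 was higher in both tumor groups than in lymph node Treg, at 1.04 and 1.16, and lower in tumor pTreg than in the tTreg libraries, at -0.12.

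The length of transcript behind each gene's reads, taken as CPM divided by FPKM, was compared for the 29 members above 1 FPKM. Acaca differed between tumor pTreg and lymph node Treg, at 5.87 ± 1.02 kb and 7.65 ± 0.731 kb, and Sc5d between tumor tTreg and lymph node Treg, at 2.01 ± 0.0768 kb and 2.43 ± 0.149 kb. These were the only members past a ratio of 1.2 with no overlap, against 5.17% and 5.70% of genes. No member passed between the tumor groups, against 0.521%.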

How the data were processed

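Bulk RNA-seq of 12 libraries (3 tumor pTreg, 5 tumor tTreg, 4 lymph node Treg) was read from 2 deposited tables of 55413 genes. Per the submitters' processing notes the authors used STAR 2.7.11a and RSEM 1.3.3 on the GRCm38/mm10 build for reads of a BGISEQ-500. The deposited expected counts are whole numbers, so rounding changed nothing, and the second deposited table holds FPKM. The gene annotation and strand setting are not given in the sources used here.

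The filter filterByExpr kept 15705 of the 27279 genes with a count, which were tested with the edgeR 4.0.16 quasi-likelihood F test (R 4.3.3, TMM factors, all libraries in 1 fit, group as the only term). Adjusted p are Benjamini-Hochberg values over all genes of a comparison, and a call is an adjusted p below 0.05. Standard errors of log2 fold changes were derived from the F statistic. CPM uses the deposited library totals. Shares of gene pairs use FPKM and two-sided exact permutation tests (SciPy 1.17.1), adjusted over 9 tests. Alternatives were other scalings and filters, DESeq2 1.42.0, limma 3.58.1 on log2(FPKM + 1) and log2(FPKM + 0.1), only the 2 groups compared, a replicate block, a 2-fold limit, pan-T scaling and leaving out each library. The fit was tested on simulated data.

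Gene positions are from GENCODE vM21 (GRCm38), where 31 of 31 members matched, and promoter windows from RefSeq (GRCm38.p6). The members and lists were chosen with earlier results of these data known. All members are named; other pathway genes are named where they are among the 4 with the smallest p of a comparison or belong to a tested pair, and some that meet this are not reported here. Of each marker list the 2 most abundant genes are named. The square root of the common dispersion was 0.0240 in tumor pTreg, 0.0335 in tumor tTreg and 0.0314 in lymph node Treg.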

Additional observations from a re-analysis of the deposited data

Results flagged for a closer look

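In groups of 4 or 5 libraries, the gap between an extreme library and its nearest neighbour was set against the range of the group. It was large in 3 of 62 groups examined, and chance gives about 1 in 20. Insig1 in lymph node replicate 4 was 55.0 CPM, above 51.4 to 51.8 CPM in the other 3 libraries. Tm7sf2 in lymph node replicate 3 was 9.70 CPM, above 8.65 to 8.78 CPM in the others. Sc5d in tumor tTreg replicate 5 was 32.6 CPM, below 34.3 to 34.7 CPM in the others. Stard4 differed in direction between the tumor groups: it was called higher in tumor pTreg and lower in tumor tTreg than in lymph node Treg, and the difference between them was 0.364 on the log2 scale (edgeR quasi-likelihood test, adjusted p = 8.82e-08).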

How the results depend on the processing

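Pan-T scaling and the 2-fold limit were applied to the counts. Under every other alternative run, 76 of 93 member results kept their side of the threshold and, where called, their direction. A turn of sign was counted only where the main run or the alternative called the result, so turns among uncalled results are left out under every setting. Over 1581 values, 1509 did so, 44 lost the threshold, 20 gained it and 8 turned sign, in 13 genes. All 8 sign changes came with limma on log2(FPKM + 1) and log2(FPKM + 0.1): Lss in tumor pTreg against lymph node Treg (-0.07496 and -0.08658), Stard4 in tumor pTreg against lymph node Treg (-0.003915 and -0.004477), Lss in tumor tTreg against lymph node Treg (-0.03545 and -0.03909) and Hsd17b7 in tumor tTreg against lymph node Treg (-0.05727 and -0.07419). The cause was not tested. With a limit of 2-fold, which can only lower the counts, members lower were 3 in tumor pTreg against lymph node Treg. Members higher and lower were 12 and 2 in tumor tTreg against lymph node Treg, and 0 and 0 in tumor pTreg against tumor tTreg. Scaled to pan-T counts, members higher and lower were 31 and 0, 31 and 0, and 0 and 31 in the 3 comparisons, and the same without Lcp2, an alternative chosen after seeing the data because Lcp2 stayed high in tumor tTreg. Leaving out 1 library at a time, members higher and lower were 20 to 21 and 8 to 10 in tumor pTreg against lymph node Treg, 18 to 20 and 9 in tumor tTreg against lymph node Treg, and 6 and 11 to 14 in tumor pTreg against tumor tTreg. In tumor tTreg against lymph node Treg the share differences then ranged from -22.86 to -22.43 points for Scd2, 15.74 to 17.76 for Srebf1 and -11.05 to -9.011 for Insig1. In tumor pTreg against lymph node Treg they ranged from -18.81 to -18.70, 10.91 to 12.93 and -4.513 to -0.2461, and in tumor pTreg against tumor tTreg from 3.683 to 4.112, -5.63 to -3.787 and 5.379 to 9.647. Same-numbered libraries did not deviate together (r of -0.0497 to 0.0525 over 9621 genes). Because libraries of a group differed so little, this check cannot decide whether same-numbered libraries share hosts, which the labels do not say. With a replicate block the counts of members higher and lower were 20 and 8, 19 and 9, and 6 and 14 in the 3 comparisons. Counts limit Fads2 in lymph node Treg (3 to 6 per library), and there is no lymph node group from tumor-bearing mice among the libraries used here.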
